A study of Mus musculus with 6 samples.

Results

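Complex I, the NADH:ubiquinone oxidoreductase, was described here through the genes of its nuclear-encoded subunits. A gene was a member when an array probe mapped through its transcript accession to a symbol of the Ndufa, Ndufb, Ndufc, Ndufs or Ndufv series followed by a number, or to Ndufab1. This gave 37 of the 23462 genes with a named probe, each read from its brightest probe. The measurement was the transcript level on 1-colour Agilent arrays, in microglia taken from the brain by magnetic selection for the surface receptor P2RY12, a marker of resting microglia. The control group, PGC-1αf/f, consisted of littermates without Cre whose genome held PGC-1α and eGFP in a Cre-dependent, loxP-flanked form (n = 3 arrays). In mPGC-1α mice the same allele was combined with Cx3cr1-CreERT2, a tamoxifen-inducible Cre recombinase in the Cx3cr1 locus, so that PGC-1α was overexpressed in Cx3cr1-expressing cells after tamoxifen and a waiting interval (n = 3 arrays). The methods describe tamoxifen before experiments in general terms, which may cover these controls, and have it given to both genotypes in other experiments. They do not state it for the controls on these arrays by name. All samples were labelled male and 10 weeks old, on a C57BL/6 background. The labels do not say that the arrays came from separate animals, so p-values measure the spread between these samples, which may be technical.

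Complex I is the largest enzyme of the respiratory chain and passes electrons from NADH to ubiquinone while pumping protons across the inner mitochondrial membrane. Its peripheral arm holds the NADH dehydrogenase module, where NADH is oxidised, and the quinone module, where ubiquinone is reduced. Its membrane arm pumps the protons. The catalytic core is shared with bacteria and is split between nuclear and mitochondrial genes, and the accessory subunits around it are encoded in the nucleus. PGC-1α is a transcriptional coactivator known in muscle and brown fat for raising respiratory chain genes through the nuclear receptor ERRα and the factors NRF1 and GABP.

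Promoter sequences from RefSeq (build GRCm38.p6, 250 bases before to 50 after each start) were found for 33 of the 37 members. Stretches from the members that hold the letters of an NRF1-type or an ERR-type element before the start are shown, since these factors are partners of PGC-1α. The capitals mark the match for which the stretch was taken, and the stretch ends at the start site where the match lies close to it. A further match in the same stretch is left in lower case, as at the end of the Ndufa8 stretch. The first 8 hold GCGCNTGCG or its reverse complement:

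Ndufa11 (chr17:56717677-56717735, + strand): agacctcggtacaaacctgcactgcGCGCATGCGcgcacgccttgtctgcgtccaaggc
Ndufa5 (chr6:24527682-24527740, - strand): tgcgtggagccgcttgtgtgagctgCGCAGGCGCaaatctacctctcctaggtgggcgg
Ndufs6 (chr13:73328483-73328523, - strand): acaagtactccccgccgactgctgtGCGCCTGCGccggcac
Ndufa12 (chr10:94198890-94198948, + strand): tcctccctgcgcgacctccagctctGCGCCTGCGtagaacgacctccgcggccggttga
Ndufb10 (chr17:24724424-24724474, - strand): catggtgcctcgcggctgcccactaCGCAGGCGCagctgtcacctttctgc
Ndufa8 (chr2:36049339-36049393, - strand): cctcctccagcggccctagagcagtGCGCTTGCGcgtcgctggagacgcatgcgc
Ndufs5 (chr4:123718250-123718308, - strand): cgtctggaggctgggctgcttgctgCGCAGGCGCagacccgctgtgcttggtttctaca
Ndufb4 (chr16:37654413-37654471, - strand): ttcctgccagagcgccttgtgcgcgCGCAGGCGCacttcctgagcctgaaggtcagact

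The other set holds the ERR core AAGGTCA or its reverse complement. In Ndufb4 both elements lie in the same stretch:

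Ndufs5 (chr4:123718383-123718436, - strand): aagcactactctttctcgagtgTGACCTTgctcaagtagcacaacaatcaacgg
Ndufb2 (chr6:39592359-39592415, + strand): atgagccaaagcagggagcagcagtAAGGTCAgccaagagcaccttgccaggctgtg
Ndufb4 (chr16:37654392-37654448, - strand): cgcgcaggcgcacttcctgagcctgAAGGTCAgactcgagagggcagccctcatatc

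The 11 letter strings given here were searched on both strands, and they were chosen with the expression values known. Longer forms of the NRF1 string were also searched and are not given. GCGCNTGCG was present in 9 of the 33 members (27.3%), which adds Ndufa6 to those shown, and in 7.12% of all genes with a promoter sequence. AAGGTCA was present in 3 members (9.09%) against 5.38% of all genes, CAAGGTCA in 1 (3.03% against 1.76%) and the full TCAAGGTCA in 0 against 0.466%. These 3 strings contain one another. CCGGAAG, the core bound by GABP and other ETS factors, was present in 4 members (12.1% against 9.93%), and CCGGAAGT, which contains it, in 1 (3.03% against 4.31%). GCCATCTT, a YY1 element, was present in 7 members (21.2% against 3.19%). The strings CGCATGCG and GCGCATG overlap with the NRF1 element and were present in 2 and 5 members (6.06% and 15.2% against 2.07% and 4.41% of all genes). CCAAT was present in 10 members (30.3% against 41.1%) and TATAAA in 4 (12.1% against 15.7%). Related lists held these strings too. GCGCNTGCG was present in 14 of 30 promoters of complexes II to V (46.7%) and 4 of 16 of the assembly factors, CCGGAAG in 40.0% and 31.2%, AAGGTCA in 16.7% and 0 of 16, and GCCATCTT in 10.0% and 18.8%. A match describes letters in a window and no site of binding, and the absence of one says nothing about a factor.

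The arrays were first set against their labels. On every array 16 of 16 microglia markers were well above background. Ppargc1a, which encodes PGC-1α, had log2 signals of 0.19, -0.44 and -1.21 in PGC-1αf/f and 0.57, 0.28 and 0.08 in mPGC-1α, relative to each array's 75th percentile. The difference was 0.80 ± 0.35 (log2, SE; limma adjusted p = 0.306), or 0.44 without PGC-1αf/f replicate 3, and the groups overlapped. Cx3cr1, whose locus holds the Cre, had log2 signals of 4.53, 4.28 and 4.24 against 3.85, 3.95 and 3.73, a difference of -0.51 ± 0.14 (limma adjusted p = 0.194), and the groups were apart. PGC-1αf/f replicate 3 stood apart, its signals correlating with those of the others at 0.928 on average, against up to 0.972 for the rest. In mPGC-1α replicate 3, labelled male, the Y-linked Ddx3y had a log2 signal of -5.92, against -2.13 to -0.41 on the other arrays. All 4 tested Y-linked genes were well above background on only 2 of 3 mPGC-1α arrays. Xist, read beside the Y-linked genes, was at -5.44, -2.78 and -6.47 in PGC-1αf/f and -5.71, -2.40 and -1.63 in mPGC-1α. It was well above background on 1 PGC-1αf/f and 2 mPGC-1α arrays, and what this means for the male label was not tested. The counts and medians of the set are also given without replicate 3 of PGC-1αf/f and of mPGC-1α. So is the difference of a single named gene where leaving out one of these 2 arrays moved it by over 1.5 times.

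Complex I transcripts were slightly higher in mPGC-1α microglia across nearly the whole set, and none of them passed the test singly. The log2 fold change (mPGC-1α over PGC-1αf/f) was above 0 in 36 of 37 members (97.3%), against 49.7% of the 25257 tested probes. The members were read from the same arrays and are not independent, so this count describes the set and is no test. The median over the members was 0.25, or 1.19-fold, and the median over all tested probes was -0.003. At an adjusted p of 0.05 in limma, 0 of 37 members were called, against 0.0792% of all probes (0.0713% higher and 0.00792% lower), and the smallest adjusted p was 0.246 (Ndufa5). At an unadjusted p of 0.05 in limma, 5 members were higher (13.5%) and 0 lower, against 7.53% and 9.21% of all probes. The number higher at this level was 0 without PGC-1αf/f replicate 3 and 1 without mPGC-1α replicate 3. It was 14 when PGC-1αf/f replicate 1 was left out, the highest over all settings. The share of all probes at this level was taken with all arrays only, so these counts have no background beside them. In 29 members with a value on all arrays, the groups were apart with mPGC-1α higher in 10 (34.5%) and lower in 0, against 11.4% and 13.7% of all probes. The other 8 members lacked a value on at least 1 array because the spot was flagged as an outlier. Among all tested probes with mean signal in the members' interquartile range, 61% were above 0, the median was 0.05, and 14.2% had groups apart with mPGC-1α higher. In such bulk samples, a change in the number of cells of a type and a change in RNA per cell cannot be told apart.

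**Figure D1:**
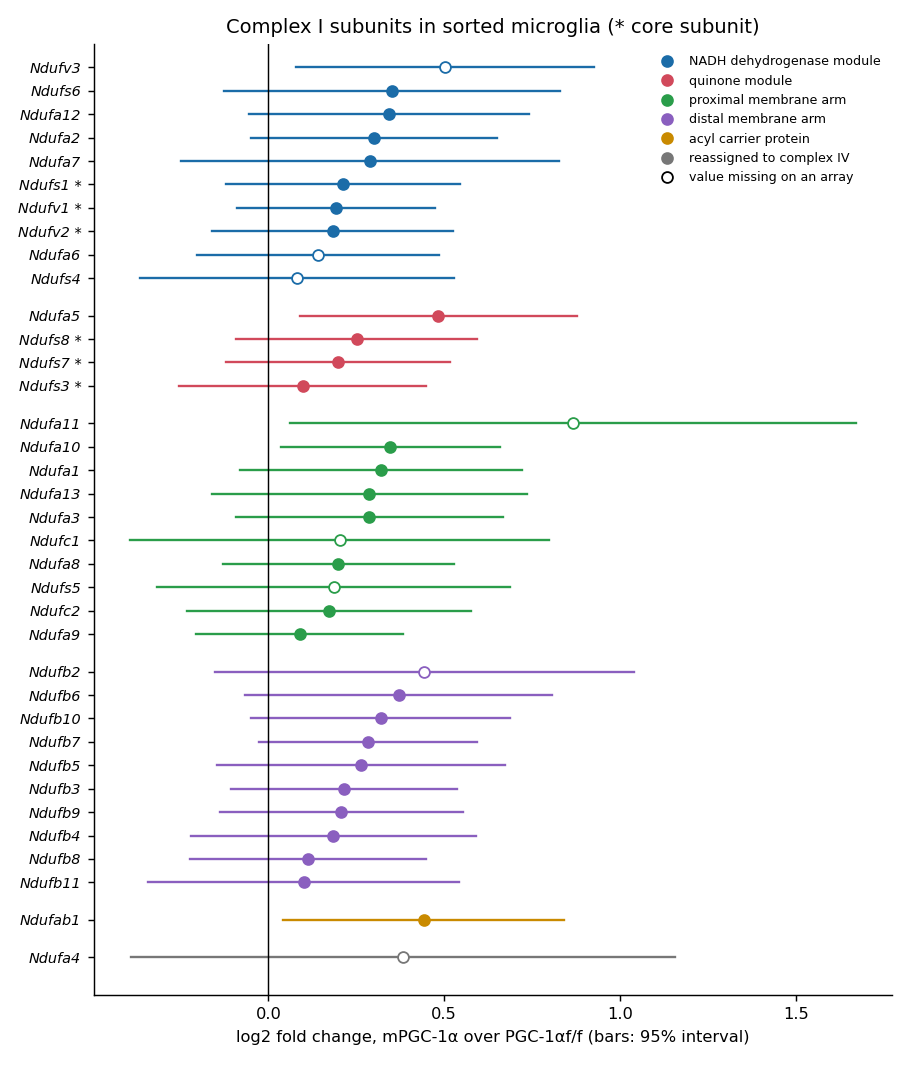
Log2 fold change (mPGC-1α over PGC-1αf/f, x axis) of 36 of the 37 subunit genes with its 95% interval from limma, grouped and coloured by module. Open circles mark genes without a value on every array and asterisks the nuclear core subunits. The interval lies wholly right of 0 in 5 genes and spans 0 in the others drawn.

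The 7 core subunits encoded in the nucleus carry the flavin and the iron-sulfur clusters of the electron path. Their median was 0.19 and 0 passed the test. The 29 accessory subunits had a median of 0.29 and 0 passed. These medians were 0.14 and 0.15 without PGC-1αf/f replicate 3, and the difference between core and accessory subunits was not tested.

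Ndufv1 binds NADH and the flavin. Its log2 signals were 2.27, 2.28 and 2.17 in PGC-1αf/f and 2.45, 2.41 and 2.43 in mPGC-1α. All mPGC-1α arrays lay above all controls, by 0.19 ± 0.12 (SE; limma adjusted p = 0.433). Ndufv2, which holds an iron-sulfur cluster next to the flavin, was at 3.15, 2.97 and 2.86 against 3.13, 3.07 and 3.33. Here the groups overlapped, with PGC-1αf/f replicate 1 above both mPGC-1α replicates 1 and 2, and the difference was 0.18 ± 0.14 (0.12 without PGC-1αf/f replicate 3 and 0.11 without mPGC-1α replicate 3). Ndufs1, the large iron-sulfur protein of the NADH dehydrogenase module, was at 2.48, 2.36 and 2.51 against 2.81, 2.49 and 2.69. It overlapped through mPGC-1α replicate 2 alone, and its difference was 0.21 ± 0.14 (0.14 without mPGC-1α replicate 1).

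The remaining core subunits belong to the quinone module. Ndufs8, an iron-sulfur protein that relays electrons towards ubiquinone, was at 3.59, 3.57 and 3.32 in PGC-1αf/f and 3.74, 3.62 and 3.88 in mPGC-1α. The groups were apart, with a difference of 0.25 ± 0.14 (SE; limma adjusted p = 0.403), which was 0.16 without PGC-1αf/f replicate 3. Ndufs7 carries the last cluster before ubiquinone and was at 3.52, 3.27 and 3.23 against 3.53, 3.52 and 3.56. The groups were again apart, though PGC-1αf/f replicate 1 lay close below the mPGC-1α arrays, and the difference was 0.20 ± 0.13. Ndufs3 was at 3.28, 2.90 and 3.12 against 3.15, 3.13 and 3.30 and overlapped (0.10 ± 0.15, and 0.04 without mPGC-1α replicate 3).

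Ndufa5, an accessory subunit of the quinone module, had the smallest adjusted p of the set. Its log2 signals were 2.59, 2.93 and 2.64 in PGC-1αf/f and 3.14, 3.04 and 3.43 in mPGC-1α. The groups were apart, and the difference was 0.48 ± 0.17 (SE; 1.40-fold; limma unadjusted p = 0.0230, adjusted p = 0.246). Without PGC-1αf/f replicate 3 it was 0.44. Over all settings the difference ran from 0.27 with array weights (limma unadjusted p = 0.0849) to 0.59 without PGC-1αf/f replicate 2. Its promoter is among those shown above with the NRF1-type letters. The median fold change (log2) was 0.32 in members with these letters and 0.26 in those without, and the difference was not tested.

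The 10 members of the NADH dehydrogenase module had a median of 0.25, or 0.16 without PGC-1αf/f replicate 3, and 0 passed. Ndufs6, a zinc-binding subunit, was at 3.27, 2.93 and 2.56 in PGC-1αf/f and 3.29, 3.14 and 3.38 in mPGC-1α. PGC-1αf/f replicate 3 was the low value and replicate 1 fell among the mPGC-1α arrays. Its difference was 0.35 ± 0.20 (SE; limma adjusted p = 0.402), and 0.17 without PGC-1αf/f replicate 3. Ndufa12 sits beside the interface of both peripheral modules and showed the same order of arrays, at 3.12, 2.90 and 2.62 against 3.27, 3.09 and 3.31 (0.34 ± 0.17, and 0.21 without PGC-1αf/f replicate 3). Ndufv3 had no value for PGC-1αf/f replicate 1. It was at 3.18 and 3.03 in the other controls and at 3.47, 3.54 and 3.81 in mPGC-1α, a difference of 0.50 ± 0.17 with an unadjusted p of 0.0276 in limma.

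The membrane arm had medians of 0.24 in the proximal and 0.24 in the distal part (both 0.14 without PGC-1αf/f replicate 3), and 0 members passed. Ndufa10 in the proximal part was at 2.47, 2.33 and 2.29 in PGC-1αf/f and 2.72, 2.60 and 2.81 in mPGC-1α. The groups were apart, and the difference was 0.35 ± 0.13 (SE; limma unadjusted p = 0.0335, adjusted p = 0.270). It was 0.31 without PGC-1αf/f replicate 3 and 0.30 without mPGC-1α replicate 3. Over all settings it ran from 0.20 with normexp and quantile normalization to 0.40 without mPGC-1α replicate 2. Ndufa11, a membrane-spanning subunit, had the highest fold change of the set, at 0.87 ± 0.33 (limma unadjusted p = 0.0389). This rested on controls of 1.63 and 0.56, with replicate 2 missing, against 2.00, 1.76 and 2.12, and the difference was 0.33 without PGC-1αf/f replicate 3. Ndufc2 was at 4.05, 3.76 and 3.60 against 3.96, 3.82 and 4.16 (0.17 ± 0.17, with 0.07 and 0.08 on leaving out replicate 3 of PGC-1αf/f and of mPGC-1α). Ndufa9, at the junction of the arms, was at 2.43, 2.41 and 2.53 against 2.49, 2.51 and 2.64 (0.09 ± 0.12, and 0.04 without mPGC-1α replicate 3). Both overlapped between the groups.

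In the distal part Ndufb6 was at 2.30, 2.12 and 1.67 in PGC-1αf/f and 2.45, 2.32 and 2.43 in mPGC-1α. The groups were narrowly apart, with PGC-1αf/f replicate 1 just under mPGC-1α replicate 2, and the difference was 0.37 ± 0.18 (SE; limma adjusted p = 0.352). Without PGC-1αf/f replicate 3 it was 0.19. Ndufb11, which is encoded on the X chromosome, was at 3.33, 3.09 and 2.74 against 3.33, 3.10 and 3.04. Replicates 1 and 2 gave nearly the same values in both groups and PGC-1αf/f replicate 3 was the lowest array. The difference of 0.10 ± 0.19 became -0.06 without it and 0.16 without mPGC-1α replicate 3. Ndufb8 was at 3.26, 3.20 and 3.04 against 3.19, 3.20 and 3.45 and overlapped (0.11 ± 0.14, with 0.05 and 0.03 on leaving out replicate 3 of PGC-1αf/f and of mPGC-1α).

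Ndufab1 is the mitochondrial acyl carrier protein, which is bound to complex I and also serves mitochondrial fatty acid synthesis. Its log2 signals were -1.25, -1.16 and -1.66 in PGC-1αf/f and -0.85, -0.86 and -1.02 in mPGC-1α. The groups were apart, and the difference was 0.44 ± 0.17 (SE; limma unadjusted p = 0.0348, adjusted p = 0.273). Without PGC-1αf/f replicate 3 it was 0.29. Ndufa4, named with this family but since assigned to complex IV, was at 3.37 and 2.86 in PGC-1αf/f replicates 2 and 3 and at 3.79 and 3.21 in mPGC-1α replicates 1 and 3. It overlapped between the groups (0.38 ± 0.30), and its other arrays had no value. Its difference was 0.09 when mPGC-1α replicate 1 was left out, 0.13 without PGC-1αf/f replicate 3 and 0.68 without mPGC-1α replicate 3.

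The size of the shift depended in part on a single control array. Among the 29 members with all values, PGC-1αf/f replicate 3 was the lowest array in 23, and the median deviation from the member's own mean was -0.30 there. The other controls were at 0.06 (replicate 1) and -0.10 (replicate 2). The mPGC-1α arrays were at 0.15, 0.06 and 0.16, and replicate 3 was the highest array in 17 members and replicate 1 in 10. PGC-1αf/f replicate 1 and mPGC-1α replicate 2 were therefore level. Without PGC-1αf/f replicate 3 the members' median was 0.15 and 34 of 37 were above 0, against 50.3% of all probes. Without mPGC-1α replicate 3 it was 0.20 and 36 were above 0, against 48.5% of all probes. Without both arrays it was 0.13 and 33 were above 0, against 49.2% of all probes, and the groups were apart with mPGC-1α higher in 13 and lower in 2 of 30 members, while 21.1% of all probes were apart and higher.

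**Figure D2:**
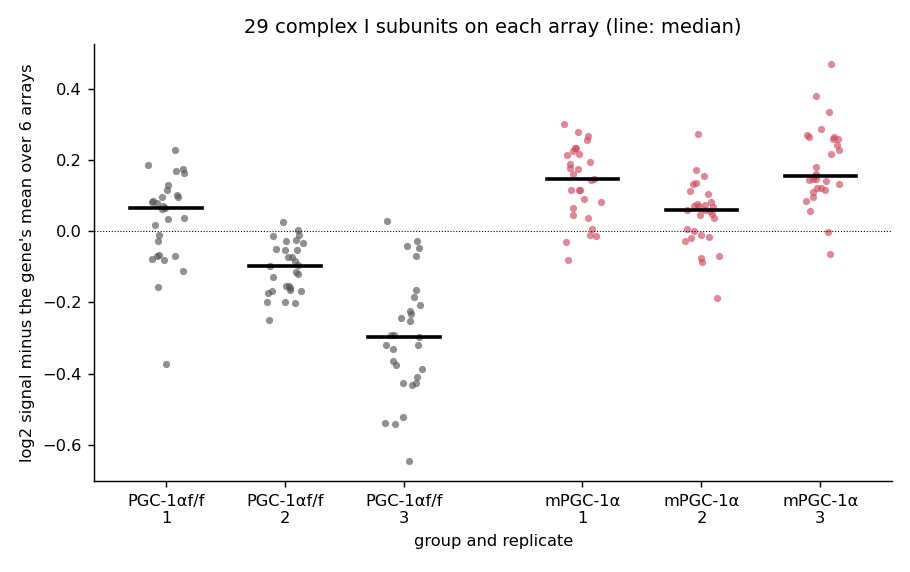
Log2 signal of the 29 complex I genes with a value on all arrays, minus each gene's mean over the 6 arrays (y axis), for each array by group and replicate (x axis). Points are genes and lines are medians. PGC-1αf/f replicate 3 has the lowest median, at -0.30, and PGC-1αf/f replicate 1 and mPGC-1α replicate 2 are both at 0.06.

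All PGC-1αf/f arrays lay in slide row 1 and all mPGC-1α arrays in slide row 2, so row and group cannot be told apart. Slide columns 1 and 2 each held an array of both groups. mPGC-1α replicate 3 lay alone in column 3 and PGC-1αf/f replicate 3 alone in column 4, so comparisons within columns use neither. Within column 1 the mPGC-1α array was higher in 25 of 33 members with a median difference of 0.08, and within column 2 in 28 of 33 with a median of 0.15. The same medians over all tested probes were -0.02 and 0.01.

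The array carried 45 probes for the 37 members, of which 44 were tested. In 7 members with 2 tested probes, both probes had the same sign in 5. For Ndufa5 the other probe gave 0.30 ± 0.13 beside 0.48, and for Ndufa10 it gave 0.35 ± 0.15 beside 0.35. For Ndufb8 the probes disagreed, at 0.11 ± 0.14 and -0.16 ± 0.14 (SE). Ndufb1 and the mitochondrially encoded subunits matched no probe and were not analysed here.

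Assembly factors build complex I without remaining in it, and their fold changes were spread about 0. Of 19 measured, 8 were above 0, with a median of -0.01, and 0 passed. The highest was Ndufaf6 at 0.31 ± 0.18 (SE; limma adjusted p = 0.400; 0.20 without PGC-1αf/f replicate 3) and the lowest Dmac2 at -0.22 ± 0.16 (adjusted p = 0.492; -0.35 without mPGC-1α replicate 3). The subunits of complexes II to V, the other enzymes of oxidative phosphorylation, were above 0 in 36 of 36 tested genes with a median of 0.25, and 0 passed. Their median without PGC-1αf/f replicate 3 was 0.11, beside 0.15 for complex I. No test was made between these lists.

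**Figure D3:**
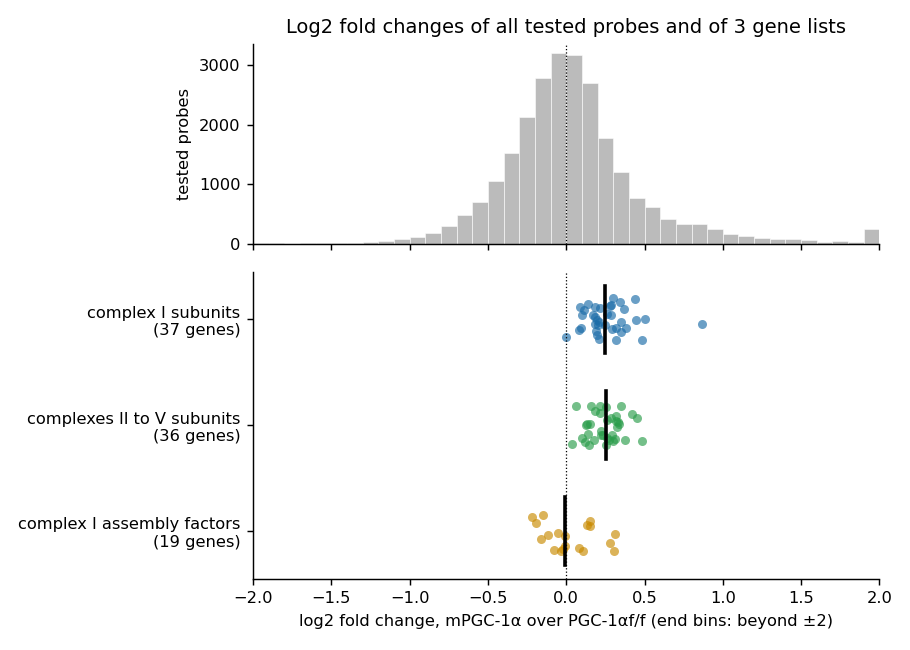
Top, number of tested probes per bin of log2 fold change (mPGC-1α over PGC-1αf/f), with the end bins holding all values beyond the axis. Bottom, the same fold change for each gene of 3 lists, with lines at the medians, which are 0.25 for complex I, 0.25 for complexes II to V and -0.01 for the assembly factors.

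Markers of other cells also differed between the arrays, and their part in the complex I values was not tested. Blood leukocyte markers were above 0 in 17 of 17 tested genes with a median of 1.08, which was 0.35 without PGC-1αf/f replicate 3. Their summed signal, in units of each array's 75th percentile, ran from 18.0 to 95.6 in PGC-1αf/f and from 98.9 to 122 in mPGC-1α, and 4 of 22 markers were well above background on no array. Endothelial and mural markers had a median of 0.74 (7 of 7 above 0), which was 0.06 without PGC-1αf/f replicate 3 and 0.44 without mPGC-1α replicate 3. Their summed signal was low, at 1.31 to 3.46 and 2.42 to 5.31. Oligodendrocyte markers had a median of -0.55, with 9 of 12 below 0 (-0.35 without PGC-1αf/f replicate 3), and sums of 19.4 to 25.1 against 14.0 to 16.4. The medians of neuron, astrocyte, border macrophage and erythroid markers were 0.17, 0.04, 0.27 and 0.12, and that of the microglia markers was -0.09. Without PGC-1αf/f replicate 3 these medians were -0.08, -0.04, 0.26, -0.28 and -0.13, and without mPGC-1α replicate 3 they were 0.22, 0.13, 0.04, -0.13 and -0.14. None of these markers passed the adjusted threshold in limma.

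Other scalings lowered the median of the complex I genes and that of all probes. With arrays aligned at their medians, the members' median was 0.12 with 29 of 37 above 0, while the median of all probes was -0.14, so that the members stood 0.26 above it. This distance was 0.25 in the main setting, 0.21 with quantile normalization, 0.21 with normexp and 0.22 in the series table, and the lowest over all settings was 0.13, without both replicates 3. With the slide column as a fixed block the members' median was 0.14 with 31 of 36 above 0, since Ndufa4 had no column with values of both groups. There Ndufv2 was at 0.04, Ndufs8 at 0.10, Ndufs6 at 0.11, Ndufa12 at 0.17 and Ndufb6 at 0.18. These members had the same values without both replicates 3. Both of those arrays lay alone in their slide columns, so the block is no separate check from leaving them out. Ndufs3, Ndufb8, Ndufb11 and Ndufa9 were among the 8 members below 0 under the median shift. In no setting did a member pass the adjusted threshold, while the share of all probes past it ran from 0% to 2.99%. At such shares, 0 of 37 says little about complex I.

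**Figure D4:**
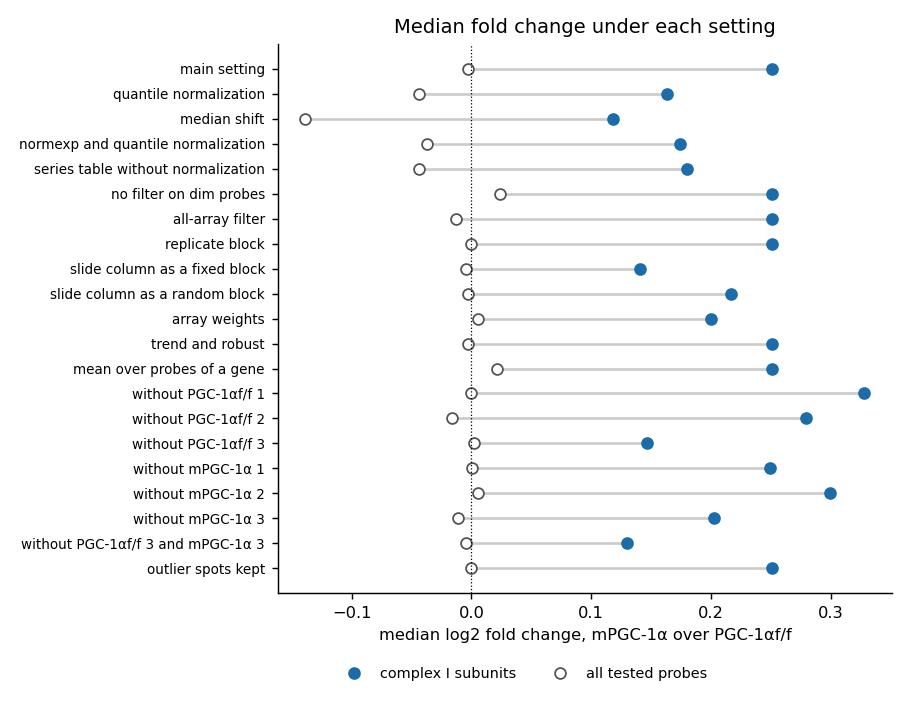
Median log2 fold change (x axis) of the complex I genes (filled) and of all tested probes (open) under each way of processing or leaving out arrays (y axis). The complex I median lies right of the median of all probes in every setting, from 0.12 under the median shift to 0.33 without PGC-1αf/f replicate 1.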

How the data were processed

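Total RNA of sorted microglia was amplified, labelled with Cy5 and hybridized to 1-colour arrays by the authors (3 per group). The deposited scanner files (Feature Extraction 11.5.1.1) hold spot intensity values after background subtraction and detrending, and the authors' flags for outlier spots and spots well above background. In the deposited table of the whole series these intensity values are repeated, rounded and not normalized.

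Outlier spots were set missing, the 75th percentile of log2 intensity was subtracted on each array, and spots of a probe were averaged. Of 56605 probes, 25333 were well above background on all arrays of a group, and 25257 gave a p-value. These were fitted together with limma 3.58.1 in R 4.3.3 (with version 1.17.8 of data.table; lmFit and eBayes, two-sided, Benjamini-Hochberg, threshold 0.05), after a check on simulated data. Probes were named through RefSeq accessions (GRCm38.p6). The fold changes carry limma's SE and 95% interval. The number of arrays limits the precision.

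Full values are given for core subunits, the 6 highest and 6 lowest members with all values, members whose probes differed in sign, Ndufa4 and Ndufab1. Ndufa11 and Ndufv3 were added after their values were seen. One member is counted in all totals and medians but is not reported here by name. The members and lists were chosen with earlier results of these data known. Alternatives covered scaling, background correction (normexp, offset 50), filters, slide column, array weights, probe averaging and leaving out arrays. Figures used Python 3.11.15, matplotlib 3.10.9, pandas 2.3.3 and numpy 2.4.6.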

Additional observations from a re-analysis of the deposited data

How the results depend on the processing

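No alternative brought a complex I member past the adjusted threshold, and the number above 0 was 29 to 37. The share of all probes past the threshold ran from 0% with the replicate block to 2.99% with array weights. Leaving out each array in turn gave 34 to 37 above 0, medians of 0.15 to 0.33 and 11 to 23 members with groups apart, the latter also rising over all probes (14.8% to 23.4%), as fewer arrays overlap less. The number apart and higher, of 29, was 6 under the median shift (6.69% of all probes), 6 with normexp and quantile normalization (9.5%) and 2 in the series table without normalization (7.54%). Signs turned for some members, mostly those with small fold changes. Ndufs3 was at -0.00685 under quantile normalization, -0.0353 under the median shift and -0.00958 with normexp. Under the median shift Ndufb8 was at -0.0188, Ndufb11 at -0.0323 and Ndufa9 at -0.0435. With normexp Ndufb11 was at -0.0265. With the slide column as a fixed block Ndufc2 was at -0.0216 and Ndufb8 at -0.0355, and Ndufb8 was at -0.0235 as the mean over probes. Ndufa4, at 0.38 in the main setting, was at -0.0313 in the series table. Leaving out arrays, the pair of replicates 3 included, gave -0.00255 to 0.187 for Ndufs3, -0.0216 to 0.295 for Ndufc2, -0.0355 to 0.161 for Ndufb8 and -0.0569 to 0.239 for Ndufb11. The cause was not tested. Same-numbered arrays correlated at 0.14, 0.13 and 0.02 in their deviations, and since one is under 0.1 the arrays were treated as unpaired. Replicates 1 and replicates 2 each shared a slide column, and replicates 3 did not. The consensus correlation within slide columns was 0.35. With the column as a random block the members' median was 0.22, with 36 above 0 and 0 past the threshold (0.546% of all probes). With the replicate block the median was 0.25, with 34 above 0 and 0 past the threshold. Keeping outlier spots, chosen after seeing the data, gave a median of 0.25 and 12 of 37 members apart (11.1% of all probes), beside 10 of 29.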
